A study of Mus musculus with 45 samples.

Results

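The transcripts described here encode 10 subunits of the CCR4-NOT complex, the main cytoplasmic deadenylase of animal cells. They were chosen by gene name from the 53491 genes in the tables: Cnot1, Cnot2, Cnot3, Cnot4, Cnot6, Cnot6l, Cnot7, Cnot8, Cnot9 and Cnot10. The products of 4 of them are nucleases (Cnot6, Cnot6l, Cnot7 and Cnot8), and the other 6 encode the scaffold and further non-catalytic subunits. All 10 passed every filter on low values used below.

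Wild-type (WT) mouse cortex was studied by SLAM-seq at embryonic days E11.5, E14.5 and also E16.5, in which 4-thiouridine (4sU) taken up into new RNA is read as T-to-C conversions after alkylation. Each pool joined the cortices of 7 embryos at the earliest stage and of 2 at either later one, and the dissociated cells were plated in a progenitor medium with bFGF, labelled with 100 uM 4sU for 20 h and then chased with 5 mM uridine. Wells of the same pool were lysed at 0, 2, 4, 8 and 12 h of chase. Each of the 15 groups of stage and chase time held 3 replicate pools (A, B and C), giving 45 libraries, and all groups carried the label. The values therefore describe cultured, mixed cortical cells, in which fewer cells of a type and less RNA per cell cannot be told apart.

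CCR4-NOT shortens the poly(A) tails of mRNAs, a step that usually precedes decapping and decay. Cnot1 is the large scaffold on which the other subunits assemble. The nucleases come as interchangeable paralogs: Cnot7 or Cnot8 (CAF1 type) binds Cnot1 directly, and Cnot6 or Cnot6l (CCR4 type) joins through Cnot7 or Cnot8. Cnot2 and Cnot3 form a heterodimer at one end of Cnot1, Cnot10 sits with Cnot11 at the other, and Cnot9 is a docking site for proteins that bring the complex to chosen mRNAs. Cnot4 is a RING-type E3 ubiquitin ligase that is not a constitutive part of the mammalian complex. The complex is of interest in the embryonic cortex because progenitors and neurons must clear the transcripts of the previous state, and the subunit mRNAs are themselves substrates of decay.

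Short windows of the 3′ untranslated regions (UTRs) are printed because the results turn on how long these mRNAs last. They were read from the GRCm38 (mm10) genome of RefSeq with the GENCODE vM21 isoform of longest coding sequence, and run 5′ to 3′ on the transcript strand. In the first set the capitals mark TGTANATA, the motif bound by Pumilio proteins, which recruit CCR4-NOT. The motif was searched on the transcript strand alone and lay in the 3′ UTR of 4 of the 10 subunits, once in each, and in 29.3% of 8705 measured transcripts with such an isoform.

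Cnot1 (chr8:95720159-95720188, minus strand): ttttgaacttgTGTAAATAtatgaaagaga
Cnot2 (chr10:116485483-116485512, minus strand): atgtacgaatgTGTATATAttatatatatg
Cnot7 (chr8:40493920-40493949, minus strand): acacacatgctTGTATATAggttttatcat
Cnot8 (chr11:58118528-58118557, plus strand): tttaagatgctTGTAAATAttatttatgtt

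In the second set the capitals mark ATTTA, the core of AU-rich elements, in Cnot6l, whose mRNA had the shortest half-life of the 10, and in Cnot3, whose 3′ UTR is the shortest. The pentamer was found in 72.3% of the 8705 3′ UTRs, and the longer form TATTTAT, which contains it, in 32.1%.

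Cnot6l site 1 (chr5:96076928-96076954, minus strand): tttaaaattggATTTAttttcctatta
Cnot6l site 2 (chr5:96076787-96076813, minus strand): tgtaaaaggtgATTTAaaaaaaaaaaa
Cnot6l site 3 (chr5:96076367-96076393, minus strand): ctctcaagttcATTTAtaaggaaatag
Cnot6l site 4 (chr5:96076042-96076068, minus strand): cagtagagatgATTTAgaggaaaggac
Cnot6l site 5 (chr5:96075851-96075877, minus strand): ccaccaccaccATTTAttgttggccag
Cnot3 (chr7:3661064-3661090, plus strand): ttttggaaaatATTTAtgaataaatag

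The 5 sites of Cnot6l lay in 1443 bases of 3′ UTR, or 3.465 per kb against 1.89 per kb over all 8705. The density was higher in Cnot7 (4.21 per kb), whose mRNA was the longest-lived after Cnot10, and in Cnot3 (3.53) and Cnot6 (3.52). It was lower in the remaining subunits. Cnot6 held 13 sites in 3690 bases, Cnot7 and Cnot9 held 4 each, Cnot8 held 3, Cnot2 held 2, and Cnot1, Cnot3 and Cnot4 held 1 each. TATTTAT lay in Cnot3, Cnot6, Cnot7 and Cnot8 but not in this Cnot6l isoform, against 32.1% of all 8705. Cnot10, with the longest-lived mRNA of the family, had neither motif in its 484-base 3′ UTR. The 3′ UTRs were 34.3% GC in Cnot6l, 35.1% in Cnot6 and 35.3% in Cnot7, 50.8% in Cnot10 and 58.7% in Cnot3, where the median over transcripts was 43.8%. These counts depend on the isoform. A second coding isoform of Cnot6l has a 3′ UTR of 6847 bases with 28 copies of ATTTA, 3 of TATTTAT and 1 of TGTANATA. In the isoform with the longest 3′ UTR, Cnot4 holds 4 copies of ATTTA, and Cnot7 holds 5 of ATTTA and 2 of TGTANATA. The isoform used for Cnot8 is annotated with an incomplete 3′ end. A match is a string of letters and not a measured site.

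The libraries held 15.9 to 43.9 M reads and 229 to 629 M covered Ts (M, 1000000), the sequenced positions at which a T could have been converted. Every subunit was well measured, with 9234 to 245800 covered Ts and 40.9 to 405 cpm (reads per 1000000) in each library. The share of converted Ts in a whole library was 1.01% to 1.44% in E11.5 pools, 1.03% to 1.18% in E14.5 pools and 1.80% to 1.91% in E16.5 pools at the end of labelling, and had fallen to 0.24% to 0.288% at 12 h. Summed cpm of 5 radial glia markers (Pax6, Sox2, Nes, Hes5 and Vim) ranged from 7919 to 8425 in E11.5 pools, from 2502 to 3189 in E14.5 pools and from 978 to 1074 in E16.5 pools. The 4 erythroid and 3 meningeal fibroblast markers were also higher at E11.5 (1426 to 3153 and 332 to 517 cpm) than later (31.8 to 72.9 and 8.65 to 18.9 cpm). The 3 interneuron markers stood at 24.7 to 32.1 cpm before E16.5 and 134 to 138 cpm there, the 3 intermediate progenitor markers at 172 to 180, 158 to 166 and 69.6 to 82.5 cpm in order of stage, and the 4 microglial and 3 endothelial markers under 10.3 cpm throughout. No defining marker was at 0 in all libraries of a stage. The part of this change in cell makeup in the stage differences below was not tested.

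Per length, Cnot7 mRNA was the most abundant of the family at each stage and Cnot6l and Cnot4 were the least. Over the length of the longest coding transcript, Cnot7 measured 52.3 ± 2.87 cpm per kb in E11.5 pools, 51.5 ± 0.561 in E14.5 pools and 49.6 ± 2.44 in E16.5 pools (SD, n = 3). Cnot6l measured 6.11 ± 0.232, 6.78 ± 0.351 and 5.98 ± 0.262 cpm per kb, and Cnot4 13.1 ± 1.17, 17.5 ± 0.646 and 14.8 ± 0.731. At E11.5 Cnot9 (40.7 ± 0.757 cpm per kb), Cnot6 (40.6 ± 1.24), Cnot2 (38.7 ± 2.09) and Cnot1 (38.3 ± 4.99) followed Cnot7 within each other's spread, then Cnot3 (29.7 ± 1.57), Cnot8 (29.6 ± 1.11) and Cnot10 (23.9 ± 0.331). By E16.5 Cnot2 (37.8 ± 0.928) and Cnot8 (33.8 ± 1.88) stood next to Cnot7, and Cnot9 had moved to the sixth place with 26 ± 0.844. The length sets part of the order. Over the isoform with the longest coding sequence, which is shorter for Cnot6l (3170 in place of 8564 bases), Cnot6l measured 15.3 to 19.3 cpm per kb over the 9 pools, and its mean stood above that of Cnot4 at each stage. Over the merged exons of all isoforms Cnot6 had the highest level at all 3 stages, above Cnot7.

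The first comparison asked whether the subunit mRNAs change over neurogenesis, using the 9 libraries at the end of labelling. The changes were small and went both ways, with no subunit beyond 2-fold between any pair of stages, while 16.1% (E14.5 against E11.5), 13.1% (E16.5 against E14.5) and 29.3% (E16.5 against E11.5) of 18408 genes were called beyond 2-fold. From E11.5 to E14.5, 4 subunits rose (Cnot2, Cnot4, Cnot6l and Cnot8), where 25.1% of all genes rose, and 3 fell (Cnot3, Cnot6 and Cnot9), where 23.5% of all genes fell. From E14.5 to E16.5 none rose against 24.1% of genes, and 4 fell (Cnot1, Cnot2, Cnot4 and Cnot9) against 25.4%. Over the whole span, 2 rose (Cnot4 and Cnot8) against 31.4%, and 5 fell (Cnot1, Cnot3, Cnot6, Cnot9 and Cnot10) against 33.1%. The median log2 change of the 10 was -0.03, -0.13 and -0.12 in these comparisons, beside -0.01, 0.00 and -0.04 over all genes tested.

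**Figure D1:**
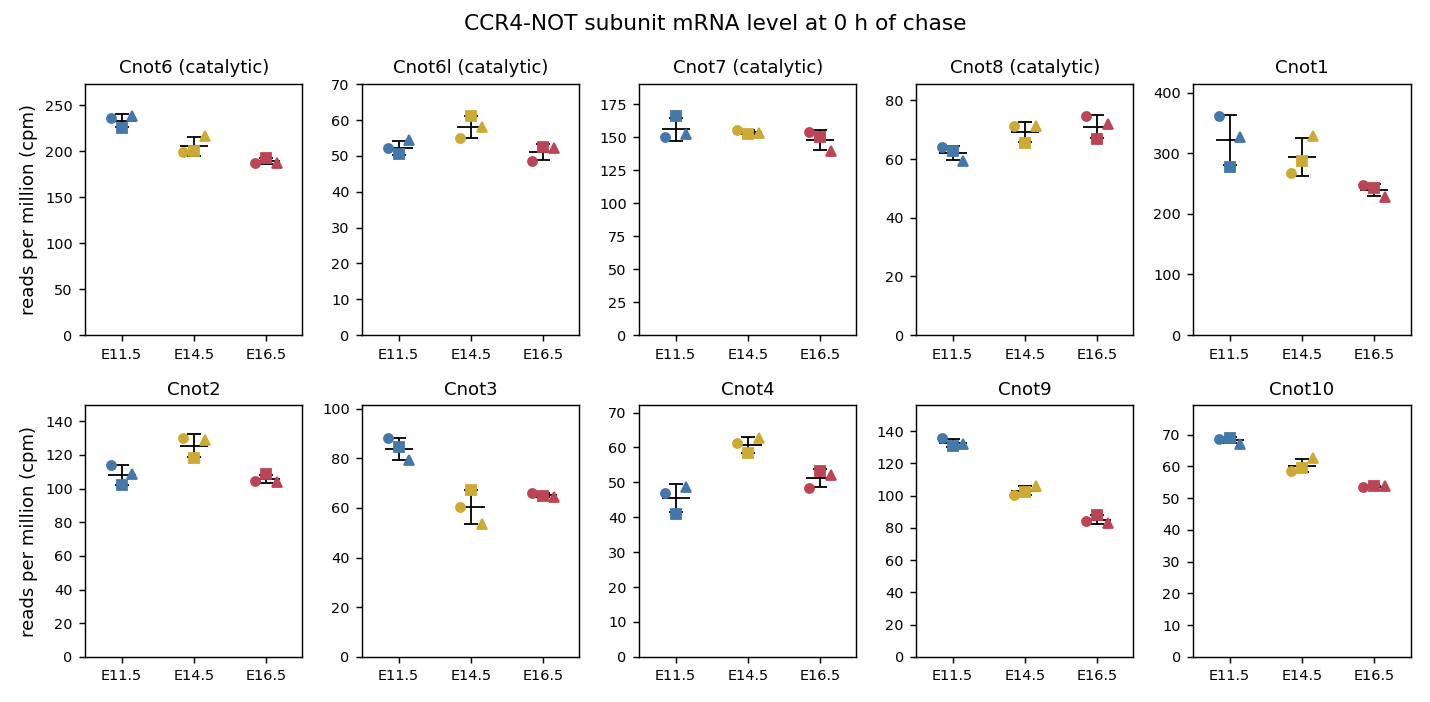
Level of each subunit mRNA at 0 h of chase in cpm (vertical axis from 0, own scale per panel) by stage. Circles, squares and triangles are pools A, B and C, and black bars the mean ± SD (n = 3). Cnot9 steps down at each stage, from between 131 and 136 cpm to between 82.8 and 88.1 cpm, and Cnot7 stays between 140 and 166 cpm.

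Among the non-catalytic subunits, Cnot9 was called lower at each step. Its replicates read 136, 131 and 132 cpm in E11.5 pools, 101, 102 and 106 in E14.5 pools, and 84.2, 88.1 and 82.8 in E16.5 pools, so that no stage overlapped another, as was so for 55.4%, 61.4% and 71.4% of all genes in the 3 pairs of stages. It fell by 0.30 on the log2 scale from E11.5 to E14.5 (SE 0.0549, adjusted p = 0.000548, edgeR) and by 0.28 from E14.5 to E16.5 (SE 0.0549, adjusted p = 0.00105), and both calls were kept in all 15 alternative settings.

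Cnot1, the scaffold, read 361, 277 and 327 cpm in E11.5 pools, 267, 287 and 328 in E14.5 pools, and 247, 243 and 228 in E16.5 pools. The E11.5 and E14.5 values overlapped, and the E16.5 values lay below all others. From E11.5 to E16.5 Cnot1 fell by 0.35 (SE 0.0964, adjusted p = 0.0064), a call kept in 15 of 15 alternatives. Its fall of 0.27 from E14.5 to E16.5 (SE 0.0963, adjusted p = 0.0345) was lost on leaving out E14.5 replicate B or C or any E16.5 replicate.

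Cnot2 and Cnot3, partners in 1 heterodimer, moved apart between E11.5 and E14.5. Cnot2 went from 114, 102 and 109 cpm to 130, 118 and 129 cpm (log2 change 0.24, SE 0.0638, adjusted p = 0.00668). Cnot3 went from 88.1, 84.4 and 79.3 cpm to 60.2, 67.2 and 53.5 cpm (log2 change -0.44, SE 0.0895, adjusted p = 0.00119). Neither gene's stages overlapped, and both calls were kept in 15 of 15 alternatives. At E16.5 Cnot2 was back at 105, 109 and 104 cpm (a fall of 0.20 from E14.5, adjusted p = 0.0181, lost with the 12 h libraries and on leaving out E14.5 replicate A or E16.5 replicate A or C), and Cnot3 read 66.1, 65 and 64.4 cpm, within the E14.5 range. Part of the Cnot3 count may be shared, since 433 bases of its exons (6.07%) overlap those of Leng1 on the opposite strand, and 232 bases of Cnot2 (5.69%) overlap 5330438D12Rik. The same holds for 247 bases of Cnot7 (4.24%, with Zdhhc2), 134 of Cnot9 (3.5%, with Usp37) and 132 of Cnot1 (0.769%, with 4930513N10Rik), each on the opposite strand. The kit kept the strand, and whether the counting used it is not given in the sources used here.

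Cnot10, which joins Cnot1 together with Cnot11, read 68.8, 68.9 and 67.2 cpm in E11.5 pools, 58.7, 59.4 and 62.5 in E14.5 pools, and 53.5, 53.7 and 53.9 in E16.5 pools. Each stage lay below the one before. Only the change over the whole span was called (-0.29, SE 0.0631, adjusted p = 0.00127), and the steps of -0.15 and -0.14 had adjusted p = 0.0728 and 0.0759.

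Cnot4, the ubiquitin ligase, was highest at the middle stage. It read 47, 40.9 and 48.6 cpm in E11.5 pools, 61.3, 58.3 and 62.6 in E14.5 pools, and 48.4, 53.2 and 52.2 in E16.5 pools. The rise of 0.47 to E14.5 (SE 0.0769, adjusted p = 0.000225) was kept in 15 of 15 alternatives. The fall of 0.22 to E16.5 (SE 0.0767, adjusted p = 0.029) was lost on leaving out E14.5 replicate A or C or E16.5 replicate A or C. The rise of 0.25 from E11.5 to E16.5 (SE 0.0768, adjusted p = 0.0123) was lost without E16.5 replicate B and with the 12 h libraries.

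Of the catalytic subunits, Cnot7 read 150, 166 and 152 cpm in E11.5 pools, 156, 152 and 153 in E14.5 pools, and 154, 150 and 140 in E16.5 pools, overlapping throughout. Its fitted changes were 0.02, -0.02 and 0.00 (adjusted p = 0.817, 0.791 and 0.976), whose sign is not settled since it turned under several scalings. Its paralog Cnot8 read 64, 62.9 and 59.5 cpm in E11.5 pools, 71.3, 65.4 and 71.4 in E14.5 pools, and 74.5, 66.8 and 71.9 in E16.5 pools. Cnot8 was higher at E16.5 than at E11.5 by 0.26 (SE 0.0637, adjusted p = 0.00285, 15 of 15 alternatives), and its earlier rise of 0.19 to E14.5 (adjusted p = 0.0249) was lost in 5 of the 15, among them on leaving out E11.5 replicate C or E14.5 replicate A or C. Not corrected for length, the ratio of Cnot7 to Cnot8 reads was 2.51 ± 0.153 in E11.5 pools, 2.22 ± 0.0984 in E14.5 pools and 2.08 ± 0.155 in E16.5 pools (SD, n = 3).

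Cnot6 read 236, 225 and 238 cpm in E11.5 pools, 199, 200 and 217 in E14.5 pools, and 187, 193 and 187 in E16.5 pools. The stages did not overlap, and Cnot6 fell by 0.25 over the whole span (SE 0.055, adjusted p = 0.00158, 15 of 15 alternatives). Its first step of -0.14 (adjusted p = 0.0475) lay just under the threshold and was kept in 3 of 15 alternatives, being lost without E11.5 replicate A or C, E14.5 replicate A or B or any E16.5 replicate. Cnot6l, its paralog, read 52.1, 50.4 and 54.4 cpm in E11.5 pools, 55, 61 and 58.1 in E14.5 pools, and 48.6, 52.6 and 52.3 in E16.5 pools. The Cnot6l rise of 0.18 to E14.5 (SE 0.0625, adjusted p = 0.0312) was kept in 8 of 15 alternatives and lost without E11.5 replicate A or B, E14.5 replicate B or E16.5 replicate A. Likewise the uncorrected ratio of Cnot6 to Cnot6l reads was 4.45 ± 0.0809 in E11.5 pools, 3.54 ± 0.242 in E14.5 pools and 3.7 ± 0.14 in E16.5 pools.

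Set against each other, the 4 catalytic subunits included 2 that rose and 1 that fell from E11.5 to E14.5, and none that was called from E14.5 to E16.5. The 6 other subunits included 2 that rose and 2 that fell, then 4 that fell. Of all genes, 25.1% rose and 23.5% fell in the first step, and 24.1% rose and 25.4% fell in the second. On leaving out a library, 1 to 4 of the 10 subunits were called in the second step. The difference between these groups was not tested, since genes are not replicates.

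The second comparison asked how long the subunit mRNAs last. A half-life was fitted in each pool to the conversion rate relative to its value at 0 h, and 9505 transcripts were kept at all stages. Most of the family was short-lived: in each pool 7 to 9 of the 10 lay below the median of all transcripts, and the median subunit stood at percentile 24.9 to 37.1. That median over all transcripts was 4.31 ± 0.445 h in E11.5 pools, 4.52 ± 0.195 h in E14.5 pools and 3.37 ± 0.0731 h in E16.5 pools (SD, n = 3 pools).

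**Figure D2:**
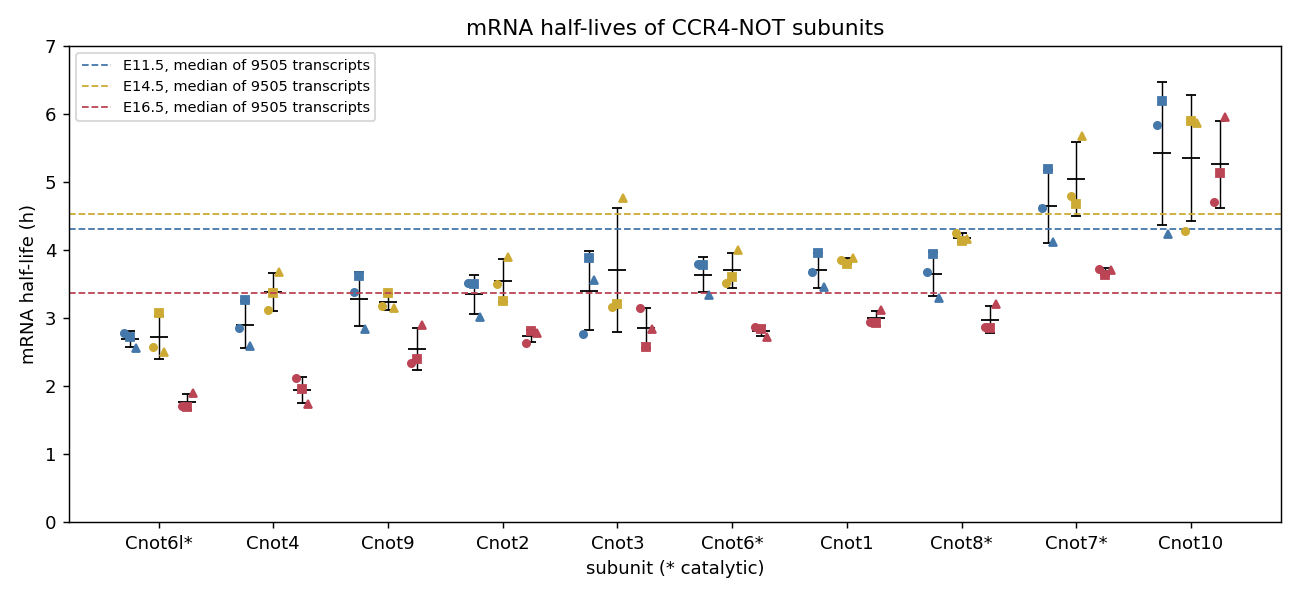
Half-life in hours (vertical axis) of each subunit mRNA, ordered from shortest to longest, with catalytic subunits starred. Circles, squares and triangles are pools A, B and C at E11.5 (blue), E14.5 (yellow) and E16.5 (red), black bars the mean ± SD (n = 3), and dashed lines the mean over pools of the median over 9505 transcripts. Cnot6l is lowest at each stage and Cnot10 highest, and every E16.5 mean lies below those of the earlier stages, that of Cnot10 by less than its SD.

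The catalytic subunits held both the shortest-lived mRNA of the family and the one next to the longest-lived. Cnot6l had the shortest mean half-life at every stage, with 2.79, 2.72 and 2.56 h in E11.5 pools, 2.57, 3.08 and 2.5 h in E14.5 pools, and 1.71, 1.7 and 1.9 h in E16.5 pools, and stood at percentile 3.91 to 16.1. Its paralog Cnot6 lasted 3.64 ± 0.256, 3.7 ± 0.259 and 2.81 ± 0.0761 h, longer than Cnot6l in all 9 pools, by a ratio of 1.35 ± 0.0435, 1.38 ± 0.217 and 1.59 ± 0.141. Cnot7 lasted 4.61, 5.19 and 4.12 h in E11.5 pools, 4.79, 4.67 and 5.67 h in E14.5 pools, and 3.72, 3.63 and 3.71 h in E16.5 pools, which put it above the median of all transcripts in every pool, at percentile 56.3 to 68.9. Cnot8 lasted 3.64 ± 0.325, 4.18 ± 0.0647 and 2.98 ± 0.198 h, shorter than Cnot7 in all 9 pools (ratio 1.27 ± 0.037, 1.21 ± 0.135 and 1.24 ± 0.0735). In both pairs the paralog with the lower level over its longest coding transcript had the shorter-lived mRNA, although over merged exons Cnot8 stood above Cnot7 at E16.5.

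Of the other subunits, Cnot10 was the longest-lived, with 5.84, 6.19 and 4.23 h in E11.5 pools, 4.28, 5.9 and 5.87 h in E14.5 pools, and 4.7, 5.13 and 5.96 h in E16.5 pools. Its pools spread widely, from percentile 46.5 to 91.1, and its decay fit was the poorest of the family (lowest R2 0.732). Cnot4 had the shortest mean after Cnot6l at E11.5 and E16.5 and stood behind Cnot9 as well at E14.5, at 2.86, 3.26 and 2.58 h, then 3.12, 3.36 and 3.68 h, then 2.13, 1.97 and 1.74 h. Cnot1 (3.7 ± 0.255, 3.84 ± 0.0477 and 3 ± 0.107 h), Cnot2 (3.35 ± 0.284, 3.55 ± 0.321 and 2.74 ± 0.0919 h), Cnot3 (3.4 ± 0.575, 3.71 ± 0.912 and 2.85 ± 0.291 h) and Cnot9 (3.28 ± 0.396, 3.23 ± 0.115 and 2.55 ± 0.312 h) lay below Cnot7 at each stage. Compared within each pool, Cnot1 outlasted Cnot9 in all 9 pools. It outlasted Cnot2 in every pool at E11.5 and E16.5 and in pools A and B at E14.5. The order mixed catalytic and other subunits: the median percentile over pools ranged from 28.2 to 37.1 for the 4 catalytic and from 21.1 to 34.3 for the 6 other subunits, the first being the higher in all 9 pools, a difference that was not tested.

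In hours, half-lives were shorter at E16.5 across the transcriptome, with a median difference of -1.15 h from E14.5 and 37.9% of 9505 transcripts called shorter by limma. Of the subunits 6 were called shorter: Cnot4 (by 1.44 h, SE 0.303 h, adjusted p = 0.0186), Cnot7 (by 1.36 h), Cnot8 (by 1.21 h), Cnot6l (by 0.946 h), Cnot6 (by 0.891 h) and Cnot1 (by 0.84 h), the last 5 with adjusted p from 0.0209 to 0.0382. Cnot10 differed by -0.087 h (SE 0.651 h, adjusted p = 0.911). Against E11.5 the median difference at E16.5 was -0.907 h, and limma called 1202 of the 9505 transcripts shorter. No subunit was called in that contrast, the smallest adjusted p being 0.0561 (Cnot6l). The share of label at 0 h differed between the stages as well, and its part in the difference in hours was not tested.

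Relative to other transcripts, as z-scores within each pool, no subunit passed the test. None of the 10 was called between E11.5 and E14.5 (0.2% of transcripts called), between E14.5 and E16.5 (0.884%), between E11.5 and E16.5 (4.7%) or over the 3 stages together (3.15%), by limma with adjusted p from 0.195 upward. At an unadjusted p under 0.05, 2 subunits passed between E14.5 and E16.5: Cnot10, higher by 0.73 SD units (SE 0.249, adjusted p = 0.195), and Cnot4, lower by 0.32 (SE 0.11, adjusted p = 0.199). The same count of 0 was given by the z-scored alternatives, and only half-lives left in hours gave calls.

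The course of label loss shows where the subunits part. After 2 h, Cnot6l kept 60.4%, 61.2% and 60.9% of its 0 h conversion rate in E11.5 pools, 60.4%, 73.4% and 59.4% in E14.5 pools, and 43.2%, 45.4% and 47.3% in E16.5 pools. Cnot10 kept 94.4%, 101% and 87.1%, then 82.6%, 102% and 111%, then 89.8%, 95.6% and 122%. This spread is too wide to size its loss by 2 h. At 4 h the mean share was 26.7%, 26.8% and 18.4% for Cnot6l, 53%, 56.4% and 43.9% for Cnot7, 40.2%, 39.2% and 31.5% for Cnot8, and 68%, 63.8% and 68.1% for Cnot10, in order of stage. By 12 h the family had converged, with 10.8% to 26.2% in E11.5 pools, 11.2% to 24.6% in E14.5 pools and 5.96% to 13.3% in E16.5 pools over all subunits and pools. Background conversions were not subtracted from these rates.

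**Figure D3:**
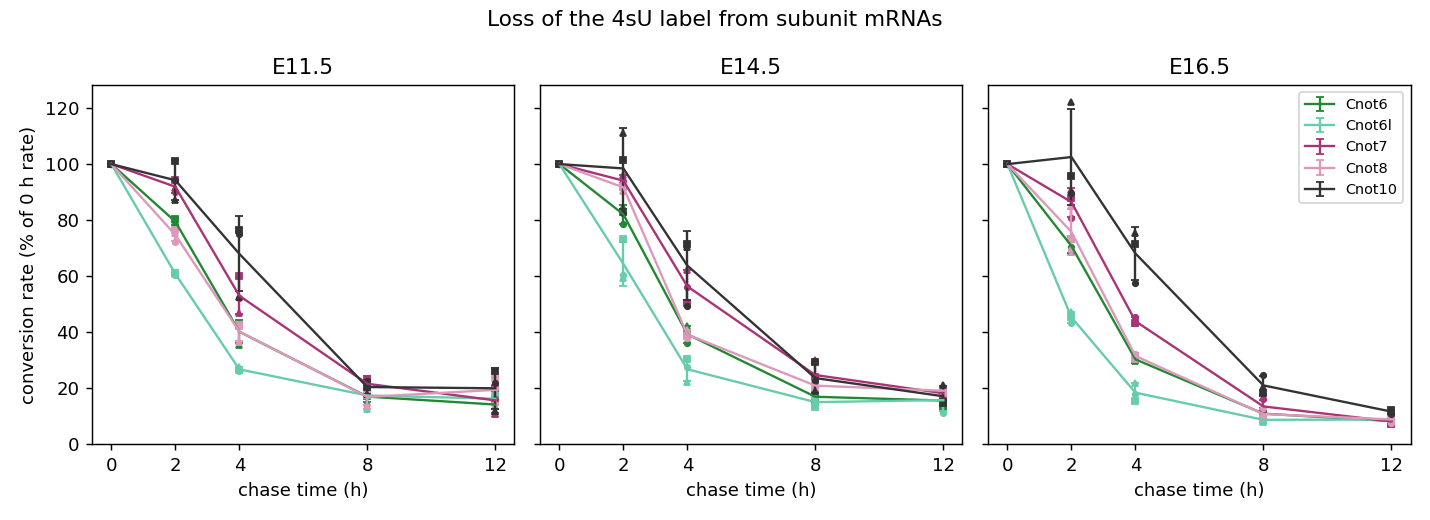
Conversion rate as a percent of the 0 h rate (vertical axis) against chase time in hours, 1 panel per stage, for the catalytic subunits and Cnot10. Symbols are pools A (circle), B (square) and C (triangle), lines join the means, and bars are SD (n = 3). Cnot6l falls to a mean of 18.4% to 26.8% by 4 h, while Cnot10 is still at 63.8% to 68.1%.

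At the end of labelling the subunits carried 0.921% to 1.63% converted Ts in E11.5 pools, 0.849% to 1.32% in E14.5 pools and 1.51% to 2.28% in E16.5 pools. Relative to the rate of the whole library, limma called no subunit between E11.5 and E14.5 (0.192% of 12522 genes called) or between E11.5 and E16.5 (17.4%), with 1 and 2 subunits at an unadjusted p under 0.05. Between E14.5 and E16.5, where 17.1% of genes were called, Cnot6 alone was lower, by 0.18 on the log2 scale (SE 0.0501, adjusted p = 0.0407), and this call was lost on leaving out any of the 9 libraries and, for Cnot6 itself, with the median gene's rate as the reference.

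The third comparison asked whether the level of the subunit mRNAs itself moved during the chase. The half-lives above were fitted to converted over covered Ts, so a change of level bears on them. Its part in the half-lives and in their order was not tested. The fitted values stood above 0 more often than below, and edgeR on covered Ts called no subunit lower. From 0 h to 12 h, 2 subunits rose in E11.5 pools (Cnot4 and Cnot6l, where 17.4% of 16559 genes rose), none in E14.5 pools (11.2% of genes, no subunit at an unadjusted p under 0.05 and none by DESeq2) and 1 in E16.5 pools (Cnot7, 12.5% of genes). After the first 2 h, a contrast added after seeing the data, 2 rose in E11.5 pools (Cnot4 and Cnot9, 1.99% of genes), none in E14.5 pools (1.75%, with 3 subunits at an unadjusted p under 0.05 and 2 called by DESeq2) and 4 in E16.5 pools (Cnot4, Cnot6, Cnot6l and Cnot9, 1.87%). The wells of a stage share pools, and with the pool as a replicate block the counts at 12 h were 4, 0 and 3, beside 23.5%, 17.6% and 20% of genes, and at 2 h 3, 2 and 4, beside 4.99%, 5.11% and 5.19%. Cnot10 ran the other way at 2 h of E16.5, from 53.5, 53.7 and 53.9 cpm to 47.4, 47.8 and 48.6 cpm. The fitted change was -0.13 (SE 0.0539, adjusted p = 0.209, and 0.0569 with the block), but on recovered reads it was called, at -0.16 (adjusted p = 0.0364).

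**Figure D4:**
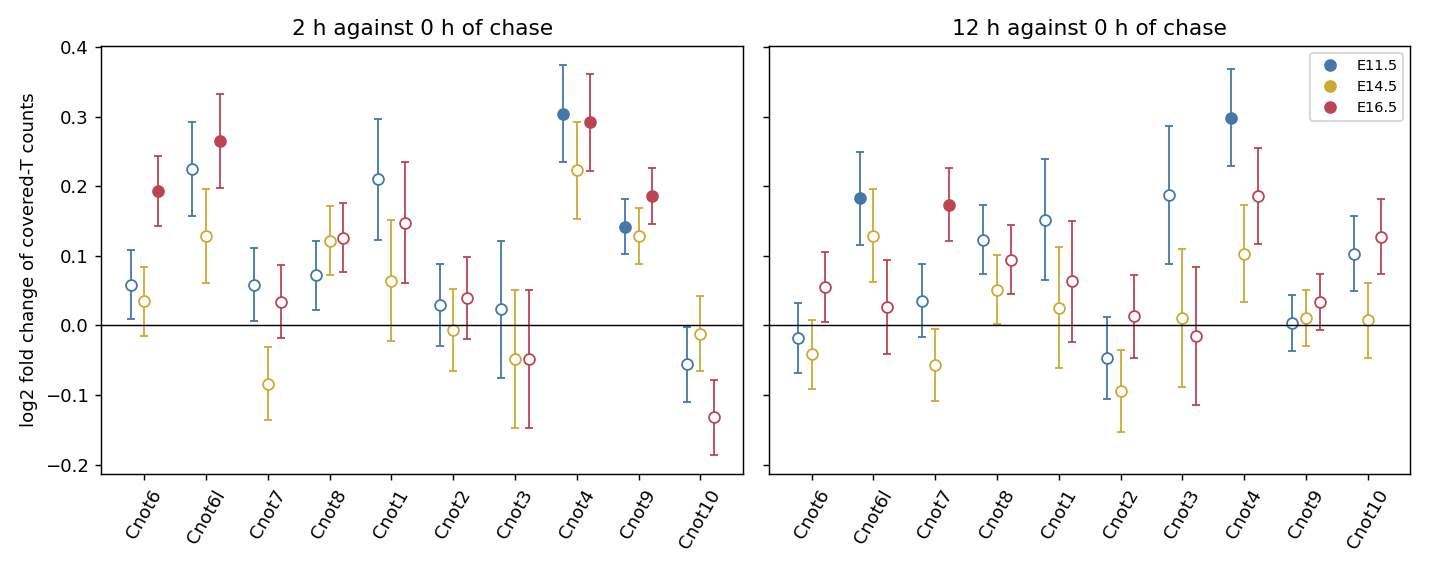
Fitted log2 fold change of covered-T counts (vertical axis) at 2 h (left) and 12 h (right) against 0 h for each subunit at E11.5 (blue), E14.5 (yellow) and E16.5 (red). Filled points were called at an adjusted p under 0.05 by edgeR, open points were not, and bars are SE (n = 3 pools). At 2 h Cnot4 reads 0.30, 0.22 and 0.29 in order of stage, and Cnot9 0.14, 0.13 and 0.19.

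Cnot4 was called at 2 h of E11.5 and E16.5, and at 12 h of E11.5 alone. Its 12 h change had an adjusted p of 0.313 at E14.5 and 0.0529 at E16.5 by edgeR. In pools A, B and C it read 47, 40.9 and 48.6 cpm at 0 h and 53.7, 55.6 and 56.9 cpm at 2 h of E11.5, and 48.4, 53.2 and 52.2 cpm at 0 h and 61.1, 65 and 60.6 cpm at 2 h of E16.5. The log2 changes by edgeR were 0.30 (SE 0.0697, adjusted p = 0.00753) and 0.29 (SE 0.0696, adjusted p = 0.0132). At E14.5 it read 61.3, 58.3 and 62.6 cpm and then 62.6, 67.9 and 76.4 cpm (0.22, adjusted p = 0.0604, and 0.0177 with the pool as a block). Cnot9 went from 84.2, 88.1 and 82.8 cpm to 94.8, 96.3 and 94.1 cpm at E16.5 (0.19, SE 0.0402, adjusted p = 0.0059). Of the nucleases, Cnot6l went from 48.6, 52.6 and 52.3 to 60.2, 59.7 and 64.5 cpm at E16.5 (0.26, adjusted p = 0.0214), and Cnot6 from 187, 193 and 187 to 212, 213 and 211 cpm (0.19, adjusted p = 0.0231). All 4 of these E16.5 calls were lost on leaving out any of the 3 E16.5 pools, and without a filter on low counts Cnot4 alone kept its call. At E11.5 the call of Cnot9 was lost on leaving out any 1 of the E11.5 replicates, and that of Cnot4 without E11.5 replicate B.

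At 12 h of E11.5 the scale matters. The median gene's cpm was lower than at 0 h by 0.09 to 0.23 on the log2 scale in the 3 pools. Reads assigned to Gm42418 alone made up 29686 to 67623 cpm of those 12 h libraries, and their part in this shift was not tested. Cnot4 read 48.1, 47.5 and 49.1 cpm there, close to its values at 0 h, and its fitted rise of 0.30 (SE 0.0697, adjusted p = 0.00125) is relative to the other genes. Likewise Cnot6l read 54.8, 51.3 and 45.9 cpm at 12 h and its fitted change was 0.18 (adjusted p = 0.0397), which upper-quartile scaling reduced to 0.11 (adjusted p = 0.207) and which was not called on leaving out any 1 of the E11.5 replicates. Cnot7 at E16.5 went from 154, 150 and 140 to 161, 163 and 159 cpm (0.17, SE 0.0524, adjusted p = 0.0155, and 0.112 with upper-quartile scaling), and this call was lost without E16.5 replicate B or C.

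Whether these changes differed between stages was tested directly. No subunit was called for E16.5 minus E11.5 of the 12 h change (8.9% of genes called, adjusted p from 0.273 upward, none at an unadjusted p under 0.05 and none by DESeq2). For E16.5 minus E14.5, added after seeing the data, 0.906% of genes and no subunit were called. The differences of the 2 h change between stages, also added later, gave no subunit either. They called 0 (E14.5 minus E11.5), 3 (E16.5 minus E11.5) and 0 (E16.5 minus E14.5) of 16559 genes. With so few calls, the lack of subunits there says nothing on whether the stages were alike. The nearest in the 12 h change was Cnot7, with a difference of 0.23 (SE 0.0741, adjusted p = 0.155, and 0.021 with the pool as a replicate block, where 6.33% of genes were called).

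A list of 8 genes held other deadenylases, their subunits and relatives of the CCR4 nucleases, not all of them established deadenylases. From E11.5 to E14.5, 2 rose and 1 fell, beside 25.1% and 23.5% of all genes. From E14.5 to E16.5, 2 rose and 2 fell, beside 24.1% and 25.4%. Their median log2 change was 0.04 and -0.03. The genes named here and in the next paragraph are those with the largest called changes, besides Btg2 and Cnot11. Noct, a circadian-linked member of the CCR4 nuclease family, went from 17.7, 21.2 and 18.8 cpm to 30.8, 35.7 and 26 and then 45.5, 43.4 and 45.6 cpm, rising by 0.77 (SE 0.107, adjusted p = 6.03e-05) and 0.50. Angel1, another relative of the CCR4 nucleases, fell by 0.74 to E14.5, and Pde12, a mitochondrial poly(A) exonuclease, rose by 0.35. At E16.5 Parn fell by 0.40, and the subunits of the PAN2-PAN3 deadenylase moved apart, Pan2 falling by 0.34 (SE 0.0924, adjusted p = 0.00759) and Pan3 rising by 0.27 (SE 0.0842, adjusted p = 0.0187).

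Of 25 recruiters and partners of the complex, 3 rose and 12 fell in the first step (25.1% and 23.5% of all genes), and 6 rose and 8 fell in the second (24.1% and 25.4%), with a median log2 change of -0.23 and 0.02. Zfp36l1, which brings CCR4-NOT to AU-rich elements, went from 240, 228 and 220 cpm to 102, 126 and 88.2 and then 36, 37.3 and 34.6 cpm, falling by 1.06 (SE 0.104, adjusted p = 2.89e-06) and 1.56 (SE 0.106, adjusted p = 2.09e-07). Btg2, an antiproliferative protein that binds the Cnot7 and Cnot8 nucleases and also one of the 3 intermediate progenitor markers above, read 108, 99.1 and 97.3 cpm, then 81.6, 81.8 and 86.3, then 35.9, 37 and 32.3 cpm, falling by 0.23 and 1.22. Its mRNA lasted 1.72 ± 0.124, 1.65 ± 0.213 and 1.42 ± 0.0328 h, less than any of the 10 subunits. Samd4, a Smaug-type repressor, fell by 0.92 to E14.5, when the Roquin paralog Rc3h2 rose by 0.55 and the miRNA effector Tnrc6c by 0.30, and at E16.5 Nanos1 rose by 0.90 and Samd4b by 0.49. Cnot11, the partner of Cnot10, fell by 0.25 to E14.5 (adjusted p = 0.0434) and rose by 0.25 to E16.5 (adjusted p = 0.0416), ending with a difference of 0.00 from E11.5 (SE 0.0939, adjusted p = 0.99).

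Over the 45 libraries, the patterns of log2(cpm + 1) most like those of the subunits were sought among 16558 other genes, as a description in which the points share pools, stages and depth. Cnot9 had the closest matches, Kpnb1 (r = 0.981) and Gbe1 (0.97), followed by Cnot3 with Scrib (0.966) and Zfp710 (0.964), Cnot1 with Slf2 (0.953) and Virma (0.952), and Cnot10 with Nup85 (0.946) and Zw10 (0.945). Cnot8 was closest to Pdik1l (0.934) and Ranbp6 (0.924), Cnot4 to Zfp266 (0.913) and Cbll1 (0.905), and Cnot6 to Fam98b (0.865) and Cog2 (0.864). The weakest best matches were those of Cnot6l (Togaram1 and Dcaf1, both 0.792) and Cnot7 (Fam126a, 0.674, and Tlk1, 0.671). Within the family, r was highest between Cnot1 and Cnot9 (0.877) and lowest between Cnot3 and Cnot8 (-0.77).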

How the data were processed

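The 9 deposited tables, 1 for each replicate pool of a stage, hold 3 measures per gene and chase time: covered-T counts, the conversion rate as a fraction, and CPM. Per the study's methods the authors made these deposited counts with SlamDunk on mm10 with GENCODE exons, summing covered and converted Ts over a gene's exons, and the deposited fraction is converted over covered Ts. The deposited CPM values were whole multiples of 1 read in 100% of cases (within 0.01 reads) in each of the 45 libraries, so the reads were recovered as an alternative. The deposited mean coverage (signal), mean CPM, half-life and R2 score per gene were made by the authors from the same values. No column was left without a sample. Half-lives were refitted as exp(-kx) to rates scaled to 0 h, and 4 of 109733 differed by more than 1% from the deposited ones. A transcript was kept with more than 500 covered Ts at all 5 times, a half-life of 0 to 24 h and R2 over 0.6 in all 3 replicates (10858, 10686 and 11850 transcripts by stage, and 9505 at all stages), and z-scored within each pool.

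Covered-T counts were tested with edgeR 4.0.16 (quasi-likelihood, TMM, more than 10 counts in every library, 1 fit for the 9 libraries at 0 h and 1 for all 45), with DESeq2 1.42.0 as an alternative, and half-lives and label content with limma 3.58.1, in R 4.3.3. Label content is the log2 of a gene's 0 h rate over that of its library, for genes with more than 500 covered Ts. Calls are Benjamini-Hochberg adjusted p under 0.05 over all genes of a fit. A covered T is not an independent molecule, so spread between replicates, not counting error, sets the precision. The scripts were tested on simulated data.

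Wells with the same letter within a stage come from the same pool per the labels, and their deviations at 0 h and 12 h correlated in all 9 pools (r from 0.14 to 0.557), so blocked values are given with the chase. Letters do not pair stages.

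The members and lists were chosen with earlier results of these data known. All 10 members are named, and of the lists at most the 2 largest called rises and falls per step, plus Btg2 and Cnot11, and for likeness the 2 genes with the highest r. The summed neuron markers and the likeness of Cnot2 are not reported here. Motifs were taken from the GENCODE vM21 isoform with the longest coding sequence. The study's regression on z-scored half-lives (maSigPro) was replaced by limma.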

Additional observations from a re-analysis of the deposited data

How the results depend on the processing

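Counts of subunits called at 0 h stayed within 1.5 times of those reported in every setting except on leaving out a library, which gave 1 to 4 from E14.5 to E16.5, 5 to 7 from E11.5 to E14.5 and 6 to 7 from E11.5 to E16.5. The fewest came without E16.5 replicate A or C (1) and without E14.5 replicate A or C (2). Pairing the stages by letter as a replicate block gave 5, 4 and 7 subunits at 0 h for E14.5 against E11.5, E16.5 against E14.5 and E16.5 against E11.5 (7, 4 and 7 without it), though same-lettered pools of different stages correlated only from -0.15 to 0.14. With this block label content from E14.5 to E16.5 had 0 calls in place of 1, as it had on leaving out any library (0 to 0). For relative half-life it called no gene at all in 3 of the 4 tests, so its 0 subunits there say nothing. With half-lives in hours the count was 6 for E16.5 against E14.5 and 2 over the stages together, and Cnot10 differed by -0.087 h.

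The chase calls moved most. With upper-quartile factors there were 1 at 12 h and 1 at 2 h of E11.5 and 0 at 12 h of E16.5, with no filter 1, 1 and, at 2 h of E16.5, 1, and with recovered reads 1 at 2 h of E14.5 and 0 at 12 h of E16.5. Recovered reads also changed which subunits were called: Cnot6 was lost (adjusted p = 0.0617) and a fall of Cnot10 gained at 2 h of E16.5, and Cnot6l was lost (adjusted p = 0.0813) and Cnot10 gained (0.13, adjusted p = 0.0232) at 12 h of E11.5. The pool as a replicate block gave 4 at 12 h of E11.5, 2 at 2 h of E14.5, 3 at 12 h of E16.5 and 1 for the 12 h change of E16.5 minus E14.5, and DESeq2 gave 2 at 2 h of E14.5 and 2 at 12 h of E16.5. Leaving out a replicate gave 1 to 4 at 12 h and 0 to 3 at 2 h of E11.5, 0 to 1 at 2 h of E14.5, and 0 to 2 at 12 h and 0 to 4 at 2 h of E16.5.

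Sign changes at 0 h concerned subunits not called as reported, though 12 h libraries called Cnot7 higher at E16.5 than at E14.5 (adjusted p = 0.00934) and E11.5 (adjusted p = 0.0421). Cnot7 turned from E11.5 to E14.5 with upper-quartile factors (-0.0277) and 12 h libraries (-0.0555), from E14.5 to E16.5 with 12 h libraries (0.185) and DESeq2 (0.00229), and from E11.5 to E16.5 with recovered reads (0.0125), no filter (0.00171), 12 h libraries (0.129) and DESeq2 (0.0198). On leaving out a replicate it ranged from -0.0102 to 0.0695, from -0.0437 to 0.0254 and from -0.0338 to 0.0474 in these comparisons, Cnot1 from -0.179 to 0.013 from E11.5 to E14.5 and Cnot2 from -9.46e-05 to 0.0804 from E11.5 to E16.5. Cnot6l turned from E11.5 to E16.5 with 12 h libraries (-0.0934). The cause was not tested. A line through log rates, in place of the exponential fit, put Cnot7 above Cnot10 at E14.5, and Cnot6l stayed shortest at each stage. Background conversions, taken in each pool as percentile 1 of its 12 h rates, were also subtracted. They were 0.0359% to 0.0723% in E11.5 pools, 0.0588% in E14.5 pool C and 0.0456% in E16.5 pool A. In E14.5 pools A and B and E16.5 pools B and C they were 0, so nothing was removed there. Cnot10 then lasted 5.01, 5.17 and 5.19 h in order of stage, and its E16.5 value was no longer the lowest. As the subtraction was unequal between stages, it cannot settle their order. The median subunit lasted 3.15, 3.55 and 2.77 h, and Cnot6l was again shortest at each stage.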
